A study of Mus musculus with 48 samples.

Results

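The genes examined here were 10 markers of epithelial, progenitor and oncofetal (fetal liver and tumour) identity: Cdh1, Epcam, Krt8, Krt18, Sox9, Spp1, Afp, Gpc3, Ly6d and Cd24a. They were taken by their GENCODE symbol, 10 of the 20622 genes with cytoplasmic RNA counts, and all 10 were also among the 16269 genes with counts of ribosome-protected fragments (RPFs, the stretches of mRNA that ribosomes cover during translation). Livers came from mice that the labels give as male, of 4 genotypes: wild type (WT), Ctnnb1ex3/+ (B), R26-LSL-MYC (M) and Ctnnb1ex3/+; R26-LSL-MYC (BM). The Ctnnb1 allele gives a stabilised β-catenin once Cre has removed its exon 3, and the R26 allele switches on MYC from the Rosa26 locus. Every mouse, WT included, received AAV8.TBG.Cre, a virus that expresses Cre from a hepatocyte promoter. The labelled dose was the same in all mice and was the higher one used in the paper. Recombination was thus directed to adult hepatocytes at 2 to 4 months of age, and the other liver cells kept unrecombined alleles. Livers were taken 4 or 10 days later, with 3 mice in each of the 8 groups, and each of the 24 mice gave 1 RPF library and 1 RNA library.

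Cdh1 (E-cadherin) and Epcam are adhesion molecules of epithelial cells, and Krt8 and Krt18 encode the keratin pair that assembles into the intermediate filaments of hepatocytes. Sox9, a transcription factor, and Spp1 (osteopontin) mark bile duct cells and liver progenitors. Afp (α-fetoprotein, a secreted albumin-family protein) and Gpc3 (glypican 3, a heparan sulfate proteoglycan) are made in fetal liver, are low in adult liver and return in many liver cancers. Ly6d and Cd24a encode small surface proteins held by a lipid anchor. Wnt and β-catenin signalling sets the identity of the hepatocytes around the central vein, and MYC drives growth and proliferation.

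The libraries held 9742197 to 14380713 RPF counts and 3254141 to 6540116 RNA counts. Levels are given as CPM, counts scaled to library size with TMM factors, and translational efficiency (TE) is the RPF level relative to the RNA level. A gene is called changed at an adjusted p under 0.1 in edgeR's quasi-likelihood test fitted over all genes, fold changes are log2 with their standard error (SE), and a member's call held when each mouse was left out in turn unless its loss is given. Calls of genes outside the 10 were not refitted in this way. The genotype checks followed the labels: RPFs of the β-catenin target Axin2 were 1.54 to 3.52 CPM over the WT and M mice and 6.2 to 28.4 CPM over the B and BM mice, and RPFs assigned to mouse Myc were 43.6 to 164 CPM in M and BM against 2.43 to 35.3 CPM in WT and B. Mouse 1 of BM at day 10 stood apart from the other two. Its Axin2 RPFs were 26.7 CPM against 10.5 and 6.2 CPM, its Glul RPFs 3479 CPM against 2487 and 1629 CPM and its Myc RPFs 58 CPM against 121 and 164 CPM. Without it the number of genes called for TE in BM against WT at day 10 went from 12 up and 15 down to 1107 up and 1176 down, so results that rest on this group are also given without it where its omission changed a member's call or moved a called fold change by over 1.5 times. At day 4 in BM, RPFs of 9 of 9 tested hepatocyte markers, 10 of 11 macrophage markers, 7 of 8 endothelial markers, 5 of 8 stellate and fibroblast markers and 4 of 4 erythroid markers fell, where 24.7% of all genes tested did, and in whole liver, fewer cells of a type and less RNA per cell cannot be told apart.

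Promoters of 5 members on which results turn are shown: Cdh1, which fell in each mutant, Afp and Ly6d, whose levels had the widest ranges, and the neighbouring keratin genes. Each is given as the 250 bases before the start of the counted transcript (GRCm39 sequence, GENCODE vM39 starts, transcript strand, 5′ to 3′). Capitals mark matches on either strand to 6 short motifs. CTTTGAT and CTTTGTT are forms of the site of TCF/LEF factors, the DNA-binding partners of β-catenin. CACGTG is the E-box that MYC binds together with its partner MAX. CACCTG is the E-box bound by the repressors of the SNAI and ZEB families. GTTAAT is a core of the site of the hepatocyte factor HNF1, and TATAAA is the TATA box. Cdh1 lies at chr8:107329733-107329982 (plus strand), Afp at chr5:90638334-90638583 (plus), Ly6d at chr15:74635598-74635847 (minus), Krt8 at chr15:101912918-101913167 (minus) and Krt18 at chr15:101936365-101936614 (plus). Krt8 and Krt18 are transcribed away from each other from starts 23698 bases apart.
Cdh1: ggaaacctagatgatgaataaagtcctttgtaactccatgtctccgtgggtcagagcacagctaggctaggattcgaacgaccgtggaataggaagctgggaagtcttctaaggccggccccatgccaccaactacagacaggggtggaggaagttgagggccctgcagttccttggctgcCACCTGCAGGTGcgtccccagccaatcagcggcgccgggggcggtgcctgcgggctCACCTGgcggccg
Afp: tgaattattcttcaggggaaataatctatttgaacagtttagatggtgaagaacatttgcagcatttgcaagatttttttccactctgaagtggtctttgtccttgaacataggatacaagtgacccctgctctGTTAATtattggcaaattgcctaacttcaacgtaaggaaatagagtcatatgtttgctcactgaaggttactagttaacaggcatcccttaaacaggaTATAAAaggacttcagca
Ly6d: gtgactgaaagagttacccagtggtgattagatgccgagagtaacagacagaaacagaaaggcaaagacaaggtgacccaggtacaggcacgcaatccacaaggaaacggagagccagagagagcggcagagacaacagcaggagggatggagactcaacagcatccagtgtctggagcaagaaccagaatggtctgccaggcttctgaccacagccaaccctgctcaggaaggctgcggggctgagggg
Krt8: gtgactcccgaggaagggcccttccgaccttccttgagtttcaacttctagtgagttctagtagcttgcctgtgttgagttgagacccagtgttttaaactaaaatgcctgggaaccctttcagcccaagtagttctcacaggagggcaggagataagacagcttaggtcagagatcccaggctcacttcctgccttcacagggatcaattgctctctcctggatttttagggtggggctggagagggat
Krt18: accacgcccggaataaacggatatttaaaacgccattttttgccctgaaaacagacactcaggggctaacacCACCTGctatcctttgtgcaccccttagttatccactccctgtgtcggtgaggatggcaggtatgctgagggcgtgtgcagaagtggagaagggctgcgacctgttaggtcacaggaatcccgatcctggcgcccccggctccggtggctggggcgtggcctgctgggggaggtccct
The Cdh1 window held 3 matches to CACCTG. A pair on opposite strands lay side by side 69 to 58 bases before the start, and the third lay 13 to 8 bases before it. At least 1 such match was present in 17.2% of the 16249 windows of counted transcripts, Krt18 among them with 1. The Afp window held GTTAAT (present in 5.7% of windows) 116 to 111 bases before the start and TATAAA (9.27%) 18 to 13 bases before it. The Ly6d and Krt8 windows held none of the 6 motifs. Neither CTTTGAT (2.74% of windows), CTTTGTT (4.57%) nor CACGTG (6.87%) was found in the windows of any of the 10 genes.

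In WT livers the 10 genes lay far apart in level. Per kilobase of counted coding sequence, median RPF levels over the 6 WT mice were 338 CPM for Krt18, 270 CPM for Krt8, 85.7 CPM for Spp1 and 72.4 CPM for Cdh1, then 7.23 CPM for Sox9, and 1.24 to 2.25 CPM for Ly6d, Gpc3, Epcam, Cd24a and Afp. Median RNA levels had the keratins first as well, at 387 TPM for Krt8 and 312 TPM for Krt18, and Afp last at 0.3 TPM. The keratins, E-cadherin and osteopontin were thus well covered, whereas the other genes had few counts. Cd24a had too few RPF counts (0 to 5 in a mouse) to be tested for RPFs or TE, and Gpc3 too few RNA counts to be tested for RNA or TE.

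Against WT, the numbers of members called differed by genotype. B, M and BM share the WT mice of their day. In parentheses after each count are the shares of all tested genes that rose and that fell in that comparison. At day 4, RPFs of 2 members rose and 2 fell of 8 tested in B (6.21% and 6.26%). In M 1 rose and 4 fell of 8 (18.5% and 14.7%), and in BM 2 rose and 4 fell of 9 (26.2% and 24.7%). RNA of 1 rose and 1 fell of 8 in B (4.41% and 3.73%), of 0 rose and 3 fell of 7 in M (13.5% and 10.3%), and of 1 rose and 4 fell of 8 in BM (21.3% and 20.6%). At day 10, RPFs of 4 rose and 1 fell of 9 in B (13.1% and 12.1%), 3 rose and 1 fell of 9 in M (10.6% and 8.8%), and 3 rose and 1 fell of 9 in BM (24.5% and 22.3%). RNA of 4 rose and 1 fell of 9 in B (8.14% and 7.48%), of 0 rose and 1 fell of 6 in M (8.53% and 7.12%), and of 4 rose and 1 fell of 8 in BM (22.9% and 22.8%). The median RPF change of the tested members was -0.27, -0.39 and -0.70 in B, M and BM at day 4 and -0.17, 0.17 and -0.07 at day 10, whereas the median of all genes lay between -0.01 and 0.03. With 6 to 9 members tested in a comparison, these counts say little beyond which single genes moved. RPFs and RNA of Ly6d and RNA of Afp were tested through the groups where they were high, and their rises are among these counts.

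**Figure D1:**
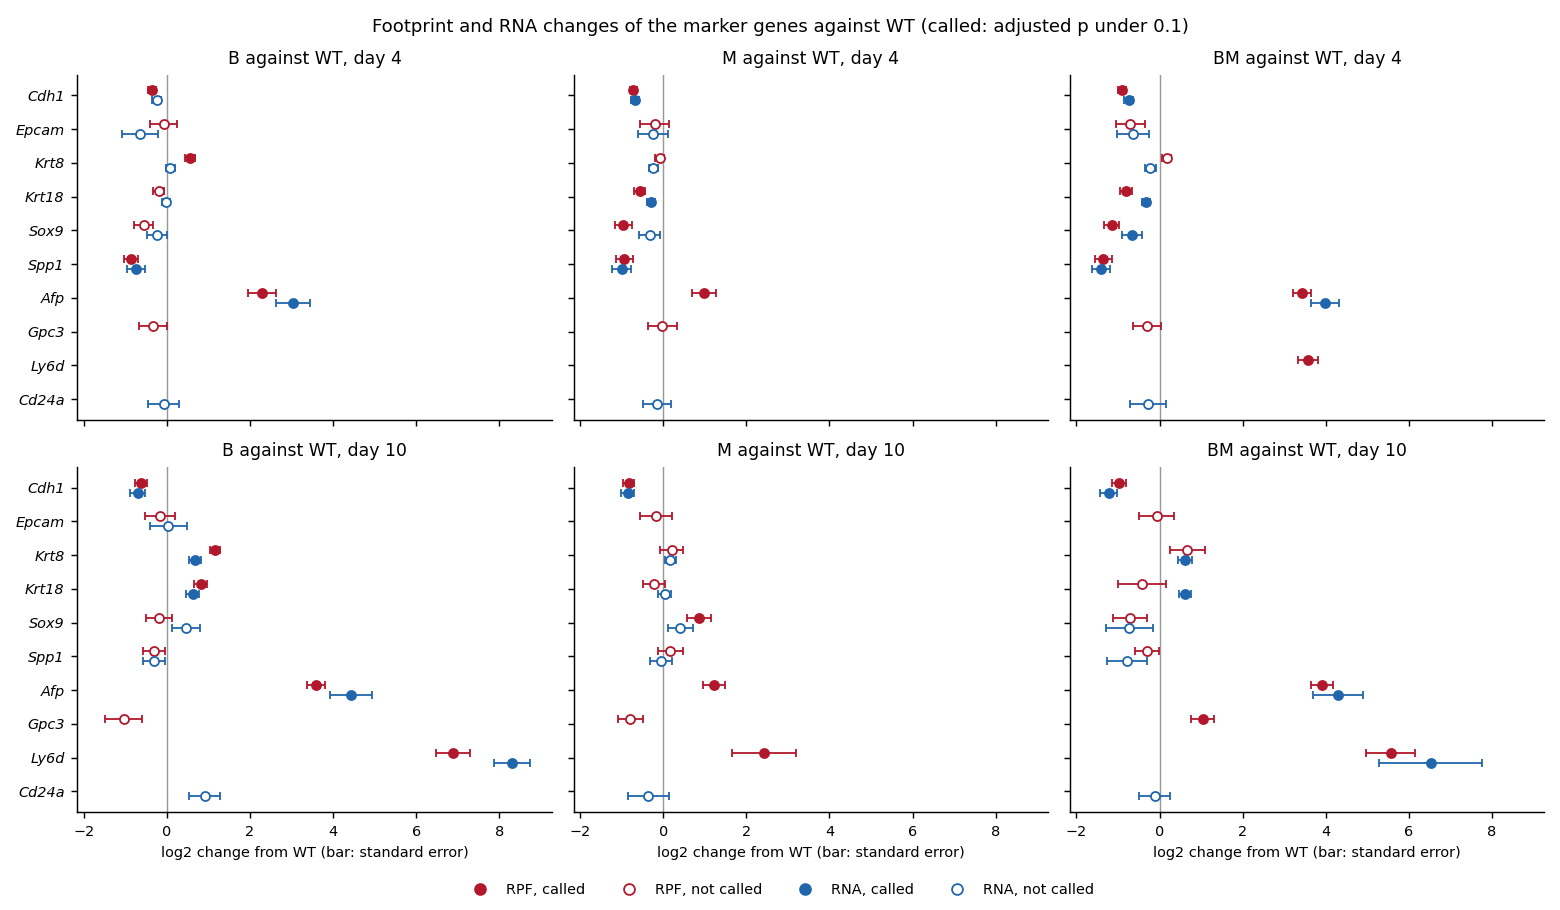
Log2 change of RPFs (red) and RNA (blue) of each marker gene against WT (x axis), by genotype and day (panels), with the standard error as a bar. Filled points were called at an adjusted p under 0.1 and missing points had too few counts to be tested. Cdh1 lies left of 0 in every panel, while Afp lies right of 0, at 0.98 to 3.91 for RPFs.

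No member was called for TE. Of 104 tests of members over the 15 comparisons (6 against WT, 4 of BM against a single mutant, and 5 differences between effects), 0 passed with edgeR. Of the 102 with a DESeq2 result, 0 passed. In edgeR, 4 had an unadjusted p under 0.05. All 4 were of the keratins. Among all genes, TE was called against WT at day 4 for 0.0488% in B, 0.971% in M and 2.23% in BM, and at day 10 for 0.0564%, 0% and 0.259%. It was called for 1.12% and 0.169% in BM against B and for 0.0943% and 0.132% in BM against M at days 4 and 10, for 0.00925% and 0.0271% in BM against the sum of both effects, and for 0%, 0% and 0.31% in the difference between days of the B, M and BM effects. Without mouse 1 of BM at day 10, TE of Krt8 and Krt18 was called, as given with the keratins. With both libraries of a mouse kept as a pair, 3 TE changes of members were called, all of them of keratins.

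Cdh1, the cadherin of the adherens junctions between hepatocytes, fell in each mutant genotype on both days. Its RPFs were 166, 187 and 194 CPM in WT at day 4 and 176, 233 and 184 CPM in WT at day 10. They were 107, 117 and 99.6 CPM in M and 106, 91.1 and 90.5 CPM in BM at day 4, and 107, 113 and 113 CPM in M and 108, 87.3 and 107 CPM in BM at day 10. No M or BM mouse reached the lowest WT mouse. The RPF change was -0.72 (SE 0.0902, adjusted p = 0.000427) in M and -0.90 (SE 0.0909, adjusted p = 1.68e-05) in BM at day 4, and -0.83 (SE 0.127, adjusted p = 0.00703) and -0.98 (SE 0.172, adjusted p = 0.00451) at day 10. RNA fell alongside, by 0.68 and 0.74 on the log2 scale in M and BM at day 4 (adjusted p = 0.000428 and 9.3e-05) and by 0.86 and 1.22 at day 10 (adjusted p = 0.00487 and 0.00213). B mice lay between WT and the other mutants, with RPFs of 160, 137 and 136 CPM at day 4 and 128, 115 and 146 CPM at day 10. The RPF change in B was -0.62 (SE 0.144, adjusted p = 0.0186) at day 10. At day 4 it was -0.35 (SE 0.0971, adjusted p = 0.0503), and the call was lost without WT mouse 2 or 3 or B mouse 2 or 3 (-0.30 to -0.33, adjusted p = 0.111 to 0.179). RNA changed in B by -0.25 (SE 0.108, adjusted p = 0.241) at day 4 and by -0.70 (SE 0.181, adjusted p = 0.0283) at day 10. On each day the group means of RPFs ran in the order WT, B, M, BM, with no overlap between WT and B or between B and M, whereas M and BM overlapped.

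Epcam, the adhesion molecule of bile duct and progenitor cells, was at 0.786 to 2.31 CPM of RPFs over all 24 mice and at 0.621 to 3.9 CPM of RNA. It was called against WT in no genotype, with RPF changes from -0.70 (SE 0.34, adjusted p = 0.122, BM at day 4) to -0.07 (SE 0.425, adjusted p = 0.91, BM at day 10). Without WT mouse 1 the BM change at day 4 was -1.0 (adjusted p = 0.0382). Among 19 other keratin and junction genes, of which 16 or 17 were tested for RPFs in each comparison, 2 rose and 7 fell in BM at day 4 (26.2% and 24.7% of all genes), and 1 rose and 5 fell in BM at day 10 (24.5% and 22.3% of all genes). Cdh2, which encodes N-cadherin, the other classical cadherin of hepatocytes, rose in BM at day 4 (RPF 0.82, SE 0.0883, adjusted p = 2.72e-05; RNA 1.00, SE 0.0943, adjusted p = 2.18e-06) and in B on both days (RPF 0.66 and 0.47, adjusted p = 0.00107 and 0.0349). Cldn1, a claudin of tight junctions, fell in BM by 0.67 (SE 0.0872) at day 4 and by 1.99 (SE 0.303) at day 10 on the log2 scale (adjusted p = 0.000106 and 0.00263). F11r, a junctional adhesion molecule, fell in BM at day 4 (RPF -0.94, SE 0.0875, adjusted p = 9.88e-06).

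**Figure D2:**
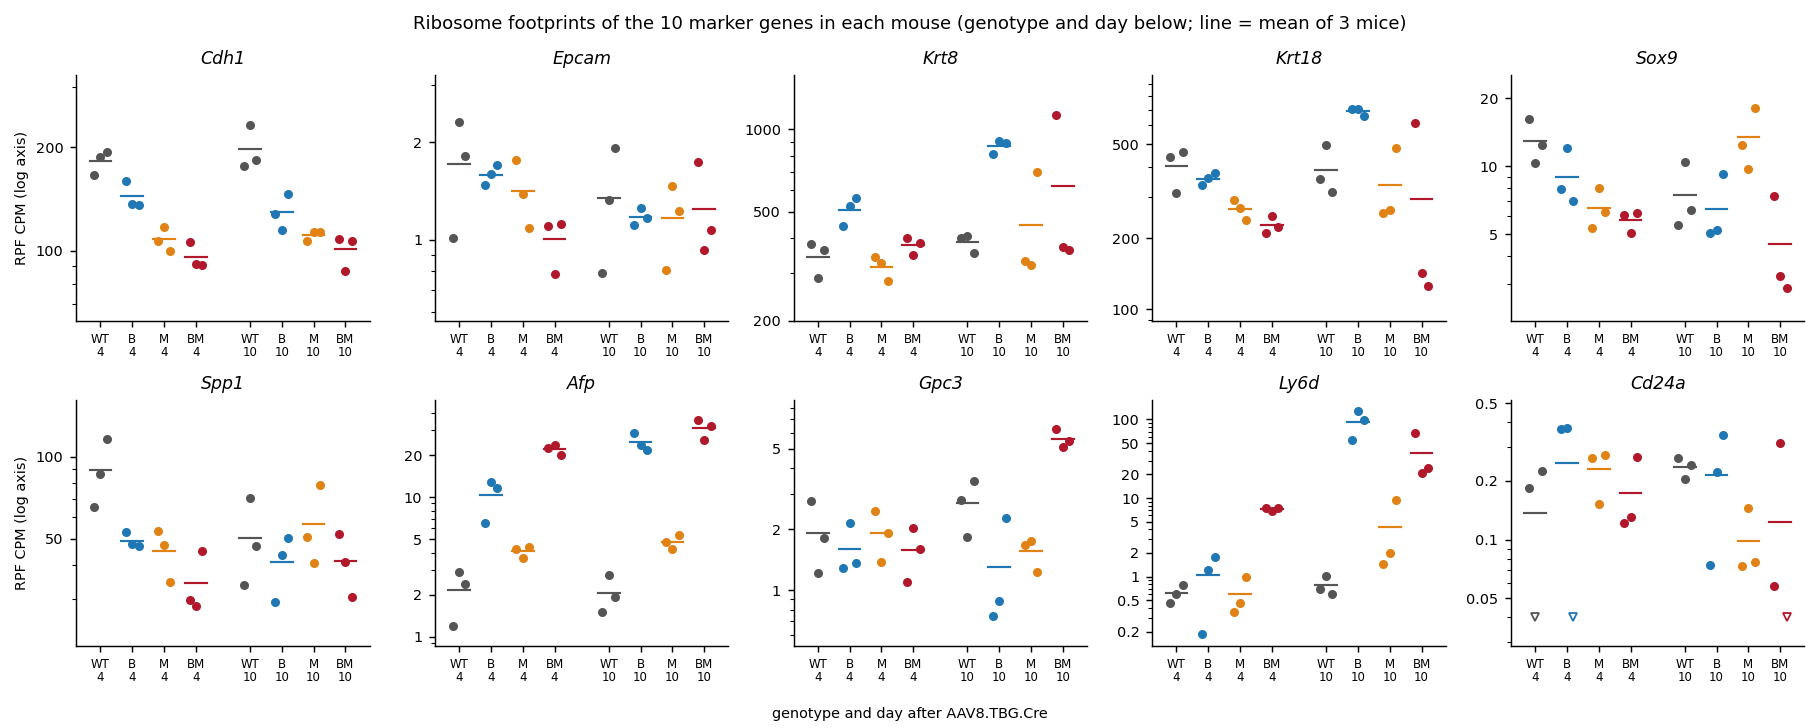
RPF level of each marker gene (CPM, log axis) in each mouse, by genotype and day after AAV8.TBG.Cre (x axis). Points are mice, lines are means of 3 mice, and open triangles at the bottom of the Cd24a panel stand for 0 counts. Afp is lowest in the WT mice, Ly6d is highest in B at day 10, and the first BM mouse of day 10 lies above the other two for Krt8, Krt18, Sox9 and Ly6d.

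Krt8 and Krt18 rose together in B at day 10. Krt8 RPFs were 815, 905 and 892 CPM in B against 401, 409 and 353 CPM in WT. Krt18 RPFs were 701, 703 and 658 CPM in B against 357, 497 and 312 CPM in WT. In both genes every B mouse was above every WT mouse. The RPF change was 1.15 (SE 0.118, adjusted p = 0.000437) for Krt8 and 0.81 (SE 0.166, adjusted p = 0.0111) for Krt18. RNA rose by 0.68 (SE 0.152, adjusted p = 0.0148) and 0.62 (SE 0.151, adjusted p = 0.022), the latter 0.49 (adjusted p = 0.11) without WT mouse 1. At day 4 the pair did not move together: Krt8 RPFs rose in B (445, 525 and 560 CPM against 383, 286 and 362 CPM in WT; 0.55, SE 0.122, adjusted p = 0.0176), whereas the Krt18 change was -0.20 (SE 0.133, adjusted p = 0.46). Krt18 RPFs fell in M at day 4 to 291, 269 and 239 CPM and in BM to 210, 249 and 223 CPM, from 441, 311 and 461 CPM in WT (-0.57, SE 0.14, adjusted p = 0.0143, and -0.81, SE 0.138, adjusted p = 0.000706). Krt18 RNA changed there by -0.30 (SE 0.0958, adjusted p = 0.0484) in M and -0.33 (SE 0.104, adjusted p = 0.0232) in BM, and TE, the test of RPF against RNA changes, was not called (-0.27 and -0.48, adjusted p = 0.876 and 0.353). The RNA call in M was lost without WT mouse 3 or M mouse 1 or 2 (adjusted p = 0.117 to 0.149).

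At day 10 the footprints of the keratins parted from their RNA in 2 of the 3 BM mice. Krt18 RNA was 487, 481 and 455 CPM in the BM mice, above the 259, 347 and 321 CPM of WT (0.61, SE 0.149, adjusted p = 0.0124). Krt18 RPFs were 611 CPM in mouse 1 but 142 and 125 CPM in mice 2 and 3, the lowest values of all 24 mice. Krt8 RNA was 987, 784 and 747 CPM against 475, 588 and 572 CPM in WT (0.62, SE 0.168, adjusted p = 0.02), while Krt8 RPFs were 1133, 373 and 362 CPM. With the 3 BM mice, the RPF change was -0.42 (SE 0.572, adjusted p = 0.586) for Krt18 and 0.67 (SE 0.425, adjusted p = 0.247) for Krt8, and the TE change was -1.06 (SE 0.655, adjusted p = 0.63) and 0.03 (SE 0.496, adjusted p = 0.993). Without mouse 1, the Krt18 RPF change was -1.55 (adjusted p = 5.19e-05) and its TE change -2.15 (adjusted p = 0.000201), and Krt8 had an RPF change of -0.09 (adjusted p = 0.576) and a TE change of -0.59 (adjusted p = 0.043). Krt18 TE was then also lower than in B (-2.34, adjusted p = 4.27e-05), than in M (-1.88, adjusted p = 0.0139) and than the sum of both effects (-2.09, adjusted p = 0.0128). Krt8 TE was lower than in B (-1.06, adjusted p = 0.00525). The BM effect at day 10 minus day 4 was then -1.65 for Krt18 TE and -0.94 for Krt8 TE (adjusted p = 0.00295 and 0.0287). The keratin TE change thus depends on that mouse, whereas the RNA of both genes rose with it and without it (Krt18 0.59, adjusted p = 0.00427; Krt8 0.48, adjusted p = 0.0106).

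The balance of the 2 keratins in the footprints is given here as a description, without a test. For each RPF count of Krt18 there were 0.785 to 0.921 counts of Krt8 in WT at day 4, 1.32 to 1.49 in B, 1.17 to 1.21 in M and 1.4 to 1.92 in BM, with no overlap between WT and any mutant. At day 10 the ratio was 0.822 to 1.13 in WT, 1.16 to 1.36 in B and 1.21 to 1.44 in M, and it was 1.85, 2.63 and 2.89 in the BM mice. The RNA ratio was 1.63 to 2.14 over all 24 mice, and its groups overlapped. With the RPF and RNA library of a mouse paired, Krt18 TE was lower in BM at day 4 than in WT (-0.47, adjusted p = 0.0517, against -0.48, adjusted p = 0.353, unpaired) and than in B (-0.33, adjusted p = 0.0213, against -0.32, adjusted p = 0.582), and Krt8 TE was higher in B than in WT at day 10 (0.47, adjusted p = 0.055, against 0.48, adjusted p = 0.882). GENCODE lists a pseudogene of Krt8, and reads of near-identical copies cannot be assigned with certainty.

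**Figure D3:**
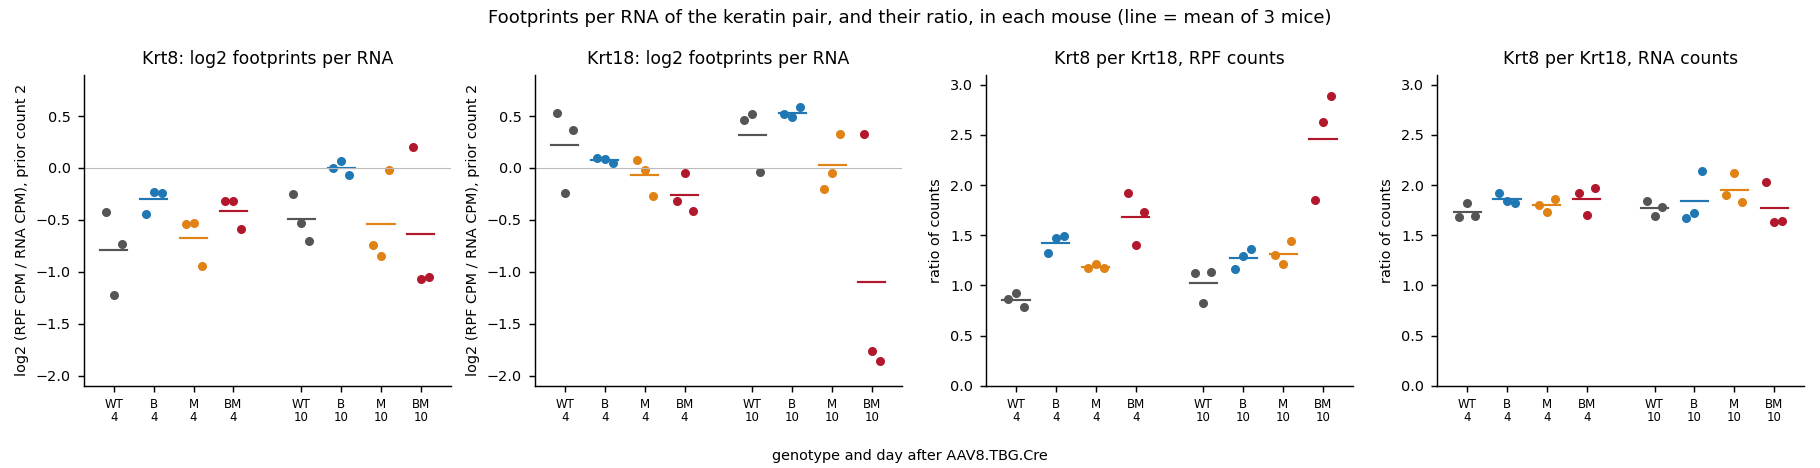
Log2 footprints per RNA (RPF CPM over RNA CPM) of Krt8 and Krt18, and the number of Krt8 counts for each Krt18 count in RPFs and in RNA, in each mouse by genotype and day. Points are mice and lines are means of 3 mice. In BM at day 10, mice 2 and 3 lie at -1.76 and -1.86 for Krt18, below all other mice, and the RPF ratio reaches 2.89 while the RNA ratio lies between 1.63 and 2.14.

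Sox9, the biliary and progenitor transcription factor, fell at day 4 in M and BM. Its RPFs were 16.2, 10.3 and 12.4 CPM in WT, 5.35, 7.97 and 6.27 CPM in M and 6.11, 5.05 and 6.22 CPM in BM. All M and BM mice were below all WT mice. The change was -0.96 (SE 0.2, adjusted p = 0.00635) in M and -1.15 (SE 0.179, adjusted p = 0.000368) in BM. RNA changed by -0.33 (SE 0.243, adjusted p = 0.396) in M and by -0.66 (SE 0.245, adjusted p = 0.0501) in BM, the latter not called without WT mouse 3 or BM mouse 2 or 3 (adjusted p = 0.108 to 0.193). At day 10 the direction in M was the opposite, with 12.4, 9.74 and 18.2 CPM against 5.51, 10.4 and 6.37 CPM in WT, groups that overlap. That rise of 0.86 (SE 0.289, adjusted p = 0.092) was lost without WT mouse 1 or 3 or M mouse 1 or 3 (0.58 to 0.91, adjusted p = 0.145 to 0.248). Sox9 RPFs in BM at day 10 were 7.37, 3.26 and 2.89 CPM (-0.71, SE 0.406, adjusted p = 0.198), and without mouse 1 the change was -1.27 (adjusted p = 0.00336). The RNA change there was -0.73 (SE 0.568, adjusted p = 0.34), and -1.93 (adjusted p = 0.00551) without mouse 1.

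Spp1, the secreted matrix protein osteopontin, fell in all 3 mutants at day 4. RPFs were 65.4, 86.3 and 116 CPM in WT, 52.8, 47.7 and 47.1 CPM in B, 53.4, 47.4 and 34.7 CPM in M and 29.8, 28.2 and 45.2 CPM in BM. No mutant mouse reached the lowest WT mouse. The change was -0.87 (SE 0.169, adjusted p = 0.00969) in B, -0.94 (SE 0.204, adjusted p = 0.00757) in M and -1.35 (SE 0.213, adjusted p = 0.000413) in BM. RNA changed alike, by -1.0 in M and -1.41 in BM (adjusted p = 0.00694 and 0.000258), and by -0.75 in B (adjusted p = 0.0623), which was not called without WT mouse 2 or 3 or B mouse 2 or 3 (adjusted p = 0.153 to 0.263). At day 10 the groups overlapped, with WT at 33.8, 70.4 and 47.1 CPM, and the changes of -0.31 in B, 0.17 in M and -0.30 in BM were not called (adjusted p = 0.448 to 0.744). The RNA change in BM was -0.78 (SE 0.482, adjusted p = 0.234) and was called without BM mouse 1 (-1.44, adjusted p = 0.00865), when the RPF change was -0.50. The WT mean was 89.1 CPM at day 4 and 50.4 CPM at day 10.

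Bile duct cells and macrophages also express members of this group. Of 12 cholangiocyte markers, 3 were tested for RPFs in BM at day 4, of which 1 fell (24.7% of all genes), as did 1 of 3 in B (6.26%), whereas 1 of 3 rose in M (18.5%), too few to set against these shares. The summed RPF level of the list was 19 to 21.9 CPM in BM, 17.7 to 24.3 CPM in B and 27 to 29.3 CPM in M against 20.2 to 28.6 CPM in WT. Sctr, the secretin receptor of bile duct cells, had no RPF counts in any mouse. Macrophage markers moved in the direction of Spp1 in BM at day 4, with a summed RPF level of 478 to 520 CPM against 846 to 973 CPM in WT, and at day 10 7 of 13 rose in BM (1113 to 1248 CPM against 680 to 943 CPM), where 24.5% of all genes rose. In the other mutants, in which Spp1 RPFs also fell at day 4, 3 of 11 tested macrophage markers fell in B and 1 of 11 in M, where 6.26% and 14.7% of all genes fell, and their median RPF change was -0.28 and 0.02. The part of these cells in the levels of Sox9 and Spp1 was not tested. Among 16 other progenitor, YAP and Notch genes, 4 of 11 tested for RPFs fell in BM at day 4, where 24.7% of all genes fell, including Cd44 (-0.57, SE 0.126, adjusted p = 0.00358), a hyaluronan receptor, and Ccn2 (-1.0, SE 0.332, adjusted p = 0.03), a YAP target. At day 10, 3 rose and 4 fell of 13, near the 24.5% and 22.3% of all genes, with Ccn2 (1.94, SE 0.342, adjusted p = 0.00468) and Tnfrsf12a (1.83, SE 0.343, adjusted p = 0.00586), the TWEAK receptor, up and Onecut1 (-3.00, SE 0.276, adjusted p = 0.000396), a hepatobiliary transcription factor, down.

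Afp RPFs rose in every mutant group, by the smallest fitted change in M. BM was above B at day 4, whereas at day 10 the difference of BM from B was not called in RPFs or RNA (RNA -0.13, SE 0.326, adjusted p = 0.8). Its RPFs were 1.2, 2.91 and 2.37 CPM in WT at day 4 and 1.49, 2.76 and 1.92 CPM in WT at day 10. In M they were 4.21, 3.68 and 4.36 CPM at day 4 and 4.76, 4.25 and 5.31 CPM at day 10. In B they were 6.53, 12.9 and 11.7 CPM at day 4 and 29, 23.7 and 21.8 CPM at day 10. In BM they were 22.5, 23.7 and 20.1 CPM at day 4 and 35.7, 25.7 and 32.4 CPM at day 10. The RPF change from WT was 0.98 (SE 0.289, adjusted p = 0.0309) in M, 2.29 (SE 0.327, adjusted p = 0.00166) in B and 3.42 (SE 0.217, adjusted p = 6.5e-07) in BM at day 4, and 1.22 (SE 0.256, adjusted p = 0.0207), 3.58 (SE 0.218, adjusted p = 4.49e-05) and 3.91 (SE 0.267, adjusted p = 0.000117) at day 10. In each mutant group all mice were above all WT mice of their day. In the order of group means, BM and B at day 10 overlapped, as did B at day 10 and BM at day 4, the M groups with each other and the WT groups with each other, whereas B at day 4 lay apart from its neighbours. RNA was higher by 3.03 (SE 0.416) and 3.99 (SE 0.338) in B and BM at day 4 and by 4.44 (SE 0.504) and 4.29 (SE 0.6) at day 10. It had 7 and 8 counts over the WT mice of days 4 and 10, and too few to be tested in M. It was thus tested through the groups where it was high, and these RNA differences are given as a description.

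By the difference of centred log2 RPF profiles over the 24 mice, the genes most like Afp among 12000 were Rhbg, an ammonia transporter of pericentral hepatocytes (root mean square difference 0.55), Bmp7, a growth factor (0.69), and Oat, ornithine aminotransferase (0.72). Rhbg and Oat were in the list of 12 pericentral genes, of which RPFs of 11 rose in B on each day, 12 in BM at day 4 and 10 in BM at day 10, where 6.21% to 26.2% of all genes rose. In M, 4 of them fell at day 4 (14.7% of all genes), and 2 rose and 2 fell at day 10 (10.6% and 8.8%). Of 8 regulators of Afp, RPFs of 1 rose and 3 fell in BM at day 4 (26.2% and 24.7% of all genes) and 1 rose and 4 fell at day 10 (24.5% and 22.3%), too few genes to set the list apart from these shares. Zhx2, a repressor of Afp in adult liver, fell in BM by 0.35 (SE 0.118, adjusted p = 0.0317) at day 4 and by 0.99 (SE 0.186, adjusted p = 0.006) at day 10 on the log2 scale. Zhx2 RPFs at day 4 were 10.9 to 12.9 CPM in B and 11 to 13.5 CPM in M, against 13.7 to 14.1 CPM in WT. At day 10 they were 13.5 to 15.3 CPM in B and 11.3 to 12.5 CPM in M, against 13.6 to 18.4 CPM in WT. Zbtb20, another repressor of Afp, fell in RPFs in BM at day 4 (-0.30, SE 0.109, adjusted p = 0.0427) while its RNA rose (0.43, SE 0.142, adjusted p = 0.0309), and its TE change was -0.74 (SE 0.2, adjusted p = 0.0937). At day 10 Zbtb20 RPFs were 38.5 to 56.8 CPM in BM against 36.2 to 44.6 CPM in WT. The part of either gene in the Afp levels was not tested.

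Gpc3 differed from Afp, since its RPFs rose only in BM at day 10. There they were 6.27, 5.12 and 5.45 CPM (108, 66 and 66 counts), against 2.8, 1.84 and 3.48 CPM in WT at day 10, and every other group lay between 0.741 and 3.48 CPM. The change was 1.04 (SE 0.272, adjusted p = 0.0203) from WT, 2.11 (SE 0.41, adjusted p = 0.0144) from B and 1.82 (SE 0.242, adjusted p = 0.00415) from M, and without BM mouse 1 it was 0.96, 2.04 and 1.79 (adjusted p = 0.00981, 0.00476 and 0.0011). RPF changes of Gpc3 against WT in the other groups were -1.04 to -0.02 and not called, but were called without B mouse 3 in B (-1.74, adjusted p = 0.012) and without WT mouse 2 in M (-0.99, adjusted p = 0.0818) at day 10. Gpc3 RNA was at 0 to 2.29 CPM in all mice. Among the genes most like Gpc3 over the 24 mice were Cpe, carboxypeptidase E (0.45), and Agt, angiotensinogen (0.47). Of 12 other oncofetal genes, 4 had enough RPF counts to be tested. Igf2, the fetal growth factor, had RPFs of 13.1, 22.7 and 38.8 CPM and RNA of 28, 31.6 and 41.3 CPM in BM at day 10, and at most 0.345 CPM of RPFs and 1.01 CPM of RNA in any mouse of the other groups, so that it was tested only through that group. Golm1, a Golgi membrane protein, rose in BM at day 4 (RPF 1.84, SE 0.176, adjusted p = 1.14e-05).

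Ly6d had the widest range of the members, 6.95 on the log2 scale between its highest and lowest group means of RPFs, against 3.85 for Afp and 2.13 for Gpc3. RPFs were 0.46, 0.607 and 0.791 CPM in WT at day 4, 0.184, 1.21 and 1.79 CPM in B, 0.351, 0.46 and 0.999 CPM in M, and 7.58, 6.81 and 7.41 CPM in BM. At day 4 the BM mice stood apart, and the 3 other genotypes overlapped. The BM difference from WT was 3.58 (SE 0.243). Ly6d had 17 RPF counts over the WT mice at day 4 and 23 at day 10 and passed the filter through the groups where it was high, so its differences from WT had to be upward and are given as a description. At day 10, RPFs were 0.7, 1.02 and 0.601 CPM in WT, 55.4, 128 and 98.1 CPM in B, 1.46, 1.98 and 9.38 CPM in M and 67.5, 20.9 and 24.4 CPM in BM. B, which overlapped WT at day 4, had the highest mean of all groups at day 10. B and BM overlapped there. The difference from WT was 6.88 (SE 0.402) in B and 5.56 (SE 0.584) in BM, or 4.83 without BM mouse 1. In M it was 2.43 (SE 0.773), which passed the threshold with all mice but not without any 1 of the WT mice (2.31 to 2.68). Without M mouse 3 it was 1.14.

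Ly6d RNA had few counts: 7 in all 3 WT mice at day 4 and 1 in all 3 at day 10. It entered the day 10 fits through B and BM, so those differences from WT had to be upward and are given as a description. In B at day 10 it had 491 counts (26.3, 35.2 and 29.5 CPM), a ratio to WT of 427 with a 95% interval from 76.3 to 16913 that covers counting error only. In BM at day 10 it had 126 counts (18.9, 2.98 and 4.68 CPM), a ratio of 133 (23.5 to 5308). Mouse 1 held 95 of these 126 counts, and the log2 difference from WT was 6.52 with it and 5.25 without it. In BM at day 4 it had 33 counts against 7, too few to be tested, a ratio of 3.51 (1.53 to 9.41), where the RPF counts were 340 against 17, a ratio of 12 (7.36 to 20.8). Ly6d is also expressed by early B cells, and the summed RPF level of the B cell markers was 1.09 to 3.68 CPM over all 24 mice, and 2.65 to 2.81 CPM in B against 1.75 to 3.68 CPM in WT at day 10. The genes most like Ly6d over the 24 mice were Greb1, an oestrogen-responsive gene (1.29), Myo7b, an unconventional myosin (1.37), and Slc1a2, a glutamate transporter of pericentral hepatocytes (1.47). These differences are not set against those of Afp, since the group means of Ly6d ranged over 6.95 on the log2 scale and those of Afp over 3.85.

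Cd24a, with a coding sequence of 228 bases, had RPFs at 0 to 0.373 CPM. Its RNA was at 0.664 to 6.44 CPM and was called against WT in no genotype. In B at day 10 it was 3.23, 5.03 and 6.44 CPM against 1.66, 3.91 and 2.21 CPM in WT (0.91, SE 0.379, adjusted p = 0.162), and the change was called without WT mouse 2 (1.34, adjusted p = 0.0799) or B mouse 1 (1.13, adjusted p = 0.0994).

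The effect of adding MYC to stabilised β-catenin is the difference of BM from B, and that of adding β-catenin to MYC the difference of BM from M. Against B at day 4, RPFs of 2 members rose and 6 fell of 9, with 23.2% of all genes up and 21.5% down, and RNA of 1 rose and 4 fell of 7 (18.1% and 16.7%). Afp rose by 1.13 (SE 0.197, adjusted p = 0.00169). Ly6d, also counted as up, was higher by 2.78 (SE 0.378). It entered this fit through BM (340 RPF counts against 36 in B), so its difference had to be upward and is given as a description. Cdh1, Krt8 and Krt18 fell by 0.55, 0.39 and 0.61 on the log2 scale (adjusted p = 0.00145, 0.0127 and 0.000625). In RNA, Afp rose and Cdh1, Krt8, Krt18 and Spp1 fell. The Krt8 call (-0.29, adjusted p = 0.0728) was lost without B mouse 2 or 3 or BM mouse 1 or 2 (adjusted p = 0.126 to 0.211) and the Krt18 call (-0.30, adjusted p = 0.0307) lost without B mouse 3 or BM mouse 1 (adjusted p = 0.119 and 0.104). Epcam, Sox9 and Spp1 changed by -0.62, -0.59 and -0.48 (adjusted p = 0.0897, 0.0499 and 0.0435), and these calls were lost without any 1 of the 6 mice for Epcam (adjusted p = 0.132 to 0.255), without B mouse 2 or BM mouse 2 for Sox9 (adjusted p = 0.194 and 0.151) and without B mouse 1 or BM mouse 1 or 2 for Spp1 (adjusted p = 0.112 to 0.151). Against M at day 4, RPFs of 3 rose and 1 fell of 9 (18.8% and 19.3%) and RNA of 1, Afp, rose and 0 fell of 8 (14.6% and 15.9%). Afp RNA (155 counts in BM against 28 in M) and Ly6d RPFs (340 against 21) entered these fits through BM. Both had to be upward and are given as a description. The RPF difference was 2.42 (SE 0.124, adjusted p = 3.33e-06) for Afp and 3.58 (SE 0.281) for Ly6d. The other 2 were the keratins, Krt8 at 0.25 and Krt18 at -0.25 (adjusted p = 0.0663 and 0.0832), which were not called without M mouse 3 or BM mouse 1 or 3 for Krt8 (adjusted p = 0.148 to 0.18) and without M mouse 1 or 2 or BM mouse 1 or 3 for Krt18 (adjusted p = 0.147 to 0.264).

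At day 10, RPFs of 1 member rose and 1 fell of 9 against B, with 18.8% of all genes up and 17.7% down, and RNA of 0 rose and 3 fell of 8 (16.1% and 15.7%). Gpc3 was the one that rose. The Afp difference of BM from B was 0.35 (SE 0.181, adjusted p = 0.188) and was not called. Ly6d was lower in BM than in B in RPFs (-1.31, SE 0.483, adjusted p = 0.083) and in RNA (-1.72, SE 0.503, adjusted p = 0.0369), the reverse of day 4. The RPF call was lost without B mouse 2 or 3 or BM mouse 2 or 3 (-1.0 to -1.28, adjusted p = 0.176 to 0.236) and the RNA call without B mouse 2 or BM mouse 3 (adjusted p = 0.112 and 0.103), and without BM mouse 1 the changes were -2.02 and -2.98 (adjusted p = 0.00149 and 2.19e-05). RNA of Cdh1 and Cd24a was lower too (-0.50 and -1.01, adjusted p = 0.0808 and 0.0616). Both calls were lost without B mouse 2 or 3 or BM mouse 2 or 3 (adjusted p = 0.183 to 0.26 and 0.136 to 0.18). Krt18 RPFs changed from B by -1.23 (SE 0.565, adjusted p = 0.142), and by -2.33 (adjusted p = 1.68e-05) without BM mouse 1. Without that mouse, RPFs of Cdh1 (-0.39, from -0.35 with it), Krt8 (-1.21, from -0.48) and Sox9 (-1.05, from -0.50) were also called lower than in B (adjusted p = 0.0616, 0.000144 and 0.028). So was RNA of Sox9 (-2.35, from -1.18) and Spp1 (-1.10, from -0.45; adjusted p = 0.00362 and 0.0595). Against M, RPFs of 3 rose and 1 fell of 9 (16% and 16.7%) and RNA of 4 rose and 0 fell of 8 (16.3% and 16.6%). Afp (2.69, SE 0.187, adjusted p = 0.000407), Gpc3 and Ly6d (3.13, SE 0.751, adjusted p = 0.0276; 2.80, adjusted p = 0.105, without M mouse 2, and 2.44, adjusted p = 0.0177, without BM mouse 1) were higher in BM than in M and Sox9 was lower (-1.58, SE 0.389, adjusted p = 0.03; -1.36, adjusted p = 0.121, without BM mouse 2). In RNA, Afp, Krt8, Krt18 and Ly6d were higher in BM than in M. RNA of Afp and Ly6d, with 25 and 16 counts in M against 157 and 126 in BM, entered the fit through BM. Their differences had to be upward and are given as a description. The Krt8 call (0.47, adjusted p = 0.0803) was lost without M mouse 1 or 2 or BM mouse 2 or 3 (adjusted p = 0.108 to 0.254), and the Krt18 call (0.60, adjusted p = 0.0294) without M mouse 1 or 2 (adjusted p = 0.126 and 0.12). The Ly6d RNA difference was 3.1 and passed the threshold, but not without M mouse 1 or 2. Without BM mouse 1 it was 1.84. The calls lower than in M then also took in Krt18 RPFs (-1.29, from -0.21, adjusted p = 0.0106) and RNA of Cdh1 (-0.50, from -0.34), Sox9 (-2.31, from -1.12) and Spp1 (-1.37, from -0.71; adjusted p = 0.00364, 0.00155 and 0.0211).

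**Figure D4:**
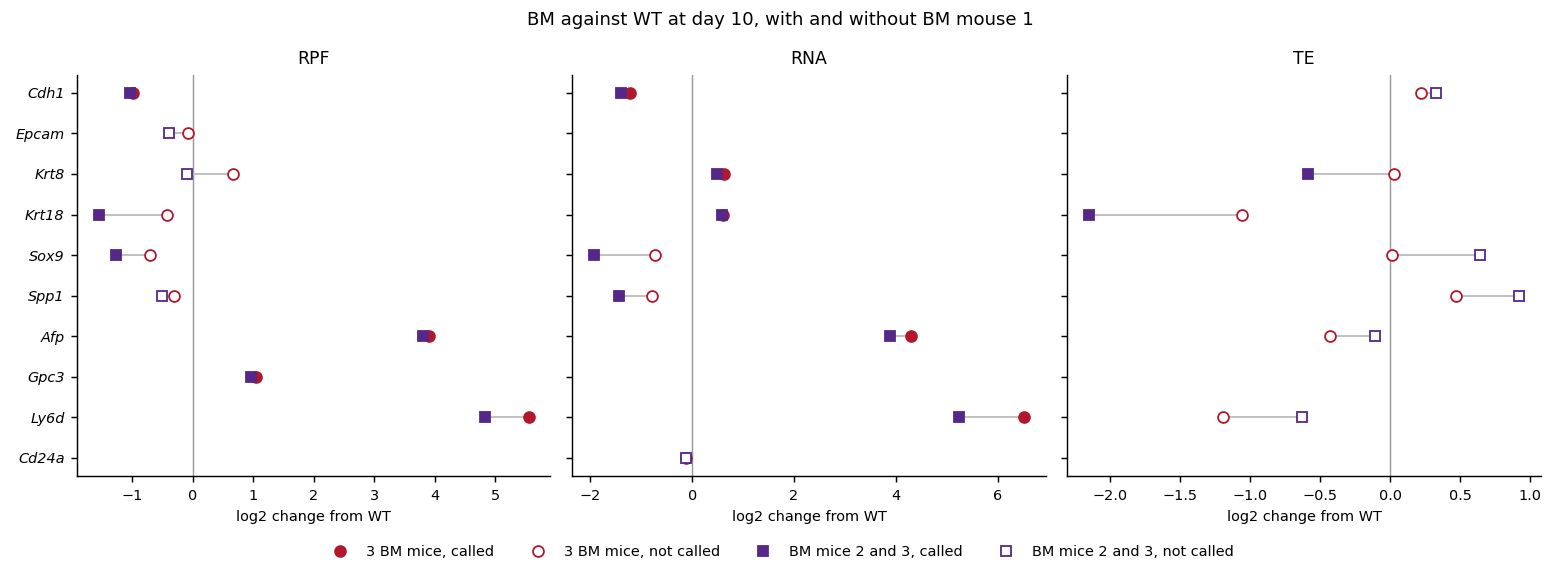
Log2 change in BM against WT at day 10 (x axis) of RPFs, RNA and TE for each marker gene, with all 3 BM mice (circles) and with BM mice 2 and 3 (squares). Filled symbols were called at an adjusted p under 0.1. The squares lie far to the left of the circles for Krt18 RPFs and TE (-1.55 and -2.15 against -0.42 and -1.06), while Afp, Gpc3 and Cdh1 keep their calls.

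Whether the effect of both alleles was the sum of the single effects was tested on the log2 scale. At day 4, RPFs of 1 member were higher than the sum and of 0 lower of 9 (8.41% and 11.3% of all genes), and RNA of 0 of 8 departed from it (5.56% higher and 7.27% lower of all genes), with an unadjusted p under 0.05 in 0 and a call with DESeq2 in 0. The 1 was Ly6d, higher in BM than the sum by 2.77 (SE 0.78), a call lost without WT mouse 3 (2.56, adjusted p = 0.104). Ly6d had 17, 36 and 21 RPF counts in WT, B and M against 340 in BM, so that it entered this fit through BM. The single effects behind the sum had too few counts to be tested by themselves, and the difference is given as a description. The Afp difference from the sum was 0.12 (SE 0.397, adjusted p = 0.875). At day 10, 1 was higher and 2 lower of 9 in RPFs (4.79% and 7.68%) and 0 of 9 in RNA (3.59% and 4.54%; 2 with an unadjusted p under 0.05, and 1 with DESeq2). Gpc3 was higher than the sum by 2.86 (SE 0.534, adjusted p = 0.0155), and by 2.77 (adjusted p = 0.00287) without BM mouse 1. Without that mouse, RPFs of Krt8 (-1.48, from -0.72), Krt18 (-2.16, from -1.03) and Sox9 (-1.96, from -1.38) were also called lower than the sum (adjusted p = 0.00896, 0.000883 and 0.00945). So was RNA of Sox9 (-2.75, adjusted p = 0.00512). RNA of Afp (-2.02) and Ly6d (-6.44) also passed the threshold, but rests on 8 and 1 counts over the WT mice and is given as a description. The 2 lower in RPFs were Ly6d (-3.76, SE 1.04, and -4.50 without BM mouse 1) and Afp (-0.91, SE 0.303, adjusted p = 0.0941). Both single effects of Ly6d in the sum start from 23 RPF counts over the WT mice, so its value is given as a description. For Ly6d the call was lost without any 1 WT mouse, B mouse 2, M mouse 3 or BM mouse 2 or 3 (-2.44 to -4.00, adjusted p = 0.101 to 0.13), for Afp without any 1 of 10 of the 12 mice (-0.70 to -0.94, adjusted p = 0.114 to 0.213), the exceptions being WT mouse 2 and BM mouse 1.

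The change of each genotype effect from day 4 to day 10 was tested on the 12 mice of WT and that genotype. In B, RPF effects of 4 of 9 members were higher at day 10 and 0 lower (8.39% and 8.83% of all genes), and RNA effects of 3 of 9 were higher and 0 lower (4.3% and 5.02%). For RPFs these were Ly6d by 6.09 (SE 1.13), Krt18 by 1.01 (SE 0.23, adjusted p = 0.0134), Krt8 by 0.60 (SE 0.172, adjusted p = 0.0401, and 0.52, adjusted p = 0.105, without WT day 4 mouse 1) and Afp by 1.3 (SE 0.462, adjusted p = 0.0878, not called without any 1 of 7 mice, 1.03 to 1.33, adjusted p = 0.121 to 0.231). Ly6d entered the RPF and RNA fits through B at day 10. Its day 4 RPF effect had too few counts to be tested by itself (36 in B against 17 in WT), so its values are given as a description. In M, 1 of 9 RPF effects, that of Sox9, was higher and 0 lower (0.633% and 0.546%), and 0 of 7 RNA effects (0.467% and 0.735%; 2 with an unadjusted p under 0.05, and 0 with DESeq2) were called. In BM, 2 of 9 RPF effects, those of Gpc3 and Spp1, were higher at day 10 and 0 lower (17.2% and 18.6%), and 3 of 9 RNA effects, those of Krt8, Krt18 and Ly6d, were higher and 0 lower (13.4% and 16.6%). Ly6d RNA had 33 counts in BM at day 4 and 126 at day 10, against 7 and 1 in WT, and is given as a description. Without mouse 1 of BM at day 10, the RPF effect was also called higher for Ly6d (1.24, from 2.00, adjusted p = 0.0265) and lower for Krt18 (-0.75, from 0.40, adjusted p = 0.0213). The RNA effect was then called lower for Cdh1 (-0.65, from -0.48) and Sox9 (-1.27, from -0.07; adjusted p = 0.0253 and 0.0716). The Cdh1 effect differed between the days by -0.27 (SE 0.177, adjusted p = 0.371) in B, -0.10 (SE 0.161, adjusted p = 0.842) in M and -0.07 (SE 0.193, adjusted p = 0.814) in BM.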

How the data were processed

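Liver RPFs and cytoplasmic RNA of 24 mice were measured as paired libraries, 48 in all. For RPFs, the authors trimmed reads, set aside those of rRNA and tRNA, used BBmap to place the remainder on 1 transcript a gene, its most abundant (GENCODE vM27, GRCm39), removed duplicates by unique molecular identifier and deposited counts over the coding sequence without 30 codons at its ends. For RNA, the authors removed duplicates likewise, aligned reads with Bowtie2 2.3.5.1 and deposited expected counts and TPM per isoform from RSEM 1.3.3, which were summed per gene here and, for expected counts, rounded (at least 99.92% were whole). The authors' FPKM and isoform percent values were not used. A transcript with no line in an RPF library (1689 to 3019 a library) was taken as 0. Since duplicates had been removed, a count stands for a molecule, and intervals of ratios cover counting error only.

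RPFs, RNA and TE (the interaction of group and library type) were tested with edgeR 4.0.16 in R 4.3.3: TMM factors within each library type, genes passing filterByExpr (minimum count 10, minimum total 15), the quasi-likelihood F test on the mice of the groups compared, and Benjamini-Hochberg adjustment over all genes tested, with a threshold of 0.1. The functions were tested on simulated data. The RPF and RNA libraries of a mouse come from 1 animal, and their deviations from the group means correlated in all 24 mice (r = 0.16 to 0.6), so that TE was also fitted with the mouse as a block. Alternatives were RLE factors, DESeq2 1.42.0, no filter, a replicate block, RNA of the counted transcript only, a threshold of 0.05 and each mouse left out. Each mouse of a group is a separate animal. No library or sequencing batch is given in the sources used here. The members, the lists of keratin and junction, progenitor, oncofetal, Afp regulator, pericentral and cell type marker genes, and the rule for naming genes were chosen with earlier results of these data known. Named were the 10 members, called genes of the lists (at most 4 a list by adjusted p), the 3 genes most like a member whose group means ranged over 2 on the log2 scale, and Glul, Axin2 and Myc as genotype checks. Some items that this rule names are not reported here.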

Additional observations from a re-analysis of the deposited data

Results flagged for a closer look

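Effects of a genotype against WT differed between day 4 and day 10 in 13 tests of members, each by a test of the difference itself on 12 mice (edgeR, log2 effect at day 10 minus day 4). In B these were Ly6d RPFs (6.09, SE 1.13) and RNA (9.15, SE 1.16), Krt18 RPFs (1.01, SE 0.23, adjusted p = 0.0134) and RNA (0.64, SE 0.181, adjusted p = 0.0451), Krt8 RPFs (0.60, SE 0.172, adjusted p = 0.0401) and RNA (0.60, SE 0.183, adjusted p = 0.0652), and Afp RPFs (1.3, SE 0.462, adjusted p = 0.0878). Of these, the RNA calls of Krt8 and Krt18 were lost without any 1 of 8 and of 6 of the 12 mice (0.50 to 0.63, adjusted p = 0.105 to 0.17, and 0.52 to 0.63, adjusted p = 0.102 to 0.121). The Ly6d RNA value rests on 1 count in the WT mice of day 10 and on 4 counts in the B mice of day 4, so its size depends on the prior count. The RPF value rests on 17 counts in WT and 36 in B at day 4. Ly6d entered both fits through B at day 10, so its values are given as a description. In M the Sox9 RPF effect turned from lower to higher (1.82, SE 0.394, adjusted p = 0.0674), a call lost without any 1 of 7 of the 12 mice (1.63 to 1.90, adjusted p = 0.116 to 0.195). The WT reference moved as well: mean Sox9 RPFs were 13 CPM in WT and 6.53 CPM in M at day 4, and 7.44 and 13.5 CPM at day 10. In BM the effects that differed were RNA of Krt18 (0.94, SE 0.18, adjusted p = 0.00215), Krt8 (0.84, SE 0.219, adjusted p = 0.014) and Ly6d (4.78, SE 1.94, a description for the same reason), and RPFs of Gpc3 (1.36, SE 0.457, adjusted p = 0.0453) and Spp1 (1.06, SE 0.419, adjusted p = 0.0803). Without mouse 1 of BM at day 10 these 5 were 0.92, 0.70, 3.52, 1.26 and 0.83 (adjusted p = 0.000526 for Krt18, 0.00826 for Krt8, 0.034 for Gpc3 and 0.0831 for Spp1). The Gpc3 call was lost without mouse 1 of WT or of BM at day 4 (0.98 and 1.13, adjusted p = 0.165 and 0.11), the Spp1 call without any 1 of 7 mice (0.82 to 1.08, adjusted p = 0.119 to 0.198) and the Ly6d call without any 1 of 9 mice (4.21 to 6.72, adjusted p = 0.106 to 0.275). Mean Spp1 RPFs were 89.1 CPM in WT and 34.4 CPM in BM at day 4, and 50.4 and 41.3 CPM at day 10, so the WT reference moved here too.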

How the results depend on the processing

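Of the 57 RPF and 40 RNA calls of members, 56 and 37 were kept with DESeq2 or 56 and 40 with RLE factors, 55 and 39 without a filter, 45 and 32 at an adjusted p under 0.05, and 51 and 38 with the replicate number as a block. With RNA of the counted transcript only, 37 RNA calls were kept. Deviations of same-numbered mice across genotypes had a median correlation of 0. They correlated over 0.1 in 5 of 36 pairs, all of them of mouse 1 at day 10 (0.11 to 0.20). What these mice share was not tested. With the mouse as a replicate block, TE calls against WT at day 4, against WT at day 10 and of BM against the single mutants went from 0 to 1 each, and no other TE call changed. At an adjusted p under 0.05, RPF calls for the difference between days went from 7 to 4 and for BM against the sum of both effects from 4 to 2. RNA calls for BM against the sum went from 0 to 1 with DESeq2 and to 4 with no filter. A called change of the opposite direction came up in 2 results that were not called on all mice, both without mouse 1 of BM at day 10: Krt8 TE in BM against WT at day 10 (-0.59 to 0.26 over the mice left out) and the difference between days of the BM effect on Krt18 RPFs (-0.75 to 0.74). Changes not called under either setting also changed sign, such as that of Krt8 RPFs in BM against WT at day 10. With each mouse left out, calls ranged from 14 to 16 for RPFs, 8 to 13 for RNA and 0 to 1 for TE against WT at day 4, from 11 to 15, 10 to 13 and 0 to 2 at day 10, from 15 to 23, 10 to 18 and 0 to 3 for BM against the single mutants, from 4 to 9, 3 to 8 and 0 to 2 for the difference between days, and from 2 to 7, 0 to 3 and 0 to 1 for BM against the sum. Depth limits Cd24a and Epcam RPFs and Gpc3 and Ly6d RNA, whose counts were too low to show small changes.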
